A study of Mus musculus with 4 samples.

Results

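The long noncoding RNAs Malat1, Neat1, Kcnq1ot1, Meg3 and H19 were followed across 4 libraries of mouse embryonic stem cells. They were taken as every transcript row that carries 1 of these 5 gene names, which gave 5 of 16470 rows in a table of RefSeq transcripts (here the mRNA table) and 24 of 6311 rows in a table of Ensembl noncoding transcripts (the noncoding table). Kcnq1ot1 had 1 row in the noncoding table, Neat1 3, H19 4, Malat1 5 and Meg3 11, and each had 1 row in the mRNA table.

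The study looked for RNAs bound by a mutant form of Dis3l2, an exoribonuclease that degrades RNA from its 3′ end and prefers RNA with added uridines. Feeder-free C57BL/6 embryonic stem cells, kept on gelatin with LIF and serum, received mutant Dis3l2 with a FLAG tag by transfection, or a mock transfection. The mutation is not named in the labels, and nothing in them says whether the cells' own Dis3l2 was still present. From each condition came 1 library of input RNA, depleted of ribosomal RNA with RiboMinus, and 1 of the RNA recovered on anti-FLAG M2 beads (the IP). The mock IP gives what the beads hold without a tagged protein. Each group is 1 library without replicates, so every interval below covers the counting of reads only and compares libraries, not conditions.

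All 5 RNAs are made from long noncoding genes. Malat1 is an abundant nuclear RNA of the nuclear speckles, which store splicing factors, and its 3′ end is made by RNase P cleavage and then held in a triple helix rather than a poly(A) tail. Neat1 is the scaffold of paraspeckles, nuclear bodies of RNA and RNA-binding proteins, and comes in a short and a long form that share their start. Kcnq1ot1, Meg3 and H19 are imprinted, that is, transcribed from the copy of 1 parent: Kcnq1ot1 runs antisense through Kcnq1 and silences genes of that cluster on the paternal copy, while Meg3 and H19 come from the maternal copy. Dis3l2 acts mainly in the cytoplasm.

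Reads are given below as input (mutant, then mock) and IP (mutant, then mock). The mRNA table held 307324 and 291175 input reads and 2275647 and 1860030 IP reads, and the noncoding table held 2157604 to 3183346 reads per library. Deposited values are reads divided by a factor of the library. They are not divided by transcript length, so levels are compared only within a gene. All 8 listed stem cell markers were in the mRNA table, with 115 and 166 input reads and 3371 and 2271 IP reads in sum, and 1 of them was at 0 in the mutant input. The 3 fibroblast, 3 trophectoderm, 3 endoderm and 3 neural markers found there had summed reads per list of 0 to 16 in the inputs and 15 to 99 in the IPs, and in each library 2 of the 3 trophectoderm markers were at 0.

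Malat1, Meg3 and Kcnq1ot1 were found in all 4 libraries in both tables, Neat1 differed by transcript row, and H19 was close to the limit of detection. Malat1 had 793 and 809 input reads and 38048 and 27257 IP reads in the mRNA table, which are levels of 441, 324, 14092 and 10903. Both IPs stood far above both inputs, and in level the mutant library was the higher one of each pair. Its leading noncoding row, ENSMUST00000172812.2, had 1284, 1296, 36451 and 26291 reads in the same order.

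Meg3 had 43 and 30 input reads and 463 and 404 IP reads in the mRNA table, and 63, 57, 764 and 551 in its leading noncoding row, ENSMUST00000146701.7. Kcnq1ot1 had 1763, 889, 2903 and 2169 reads in the mRNA table and 1349, 1414, 3357 and 2399 in the noncoding table. The IPs were again the higher libraries in reads, but the order of the 2 Kcnq1ot1 inputs in reads differed between the tables.

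Neat1 gave different patterns by row. The RefSeq transcript NR_003513 had 1 and 26 input reads and 366 and 288 IP reads. The leading noncoding row ENSMUST00000173672.1 had 395, 411, 501 and 447 reads, close to even over the 4 libraries. H19 had 0 reads in both inputs and 21 and 13 IP reads in the mRNA table, and its 4 noncoding rows together had 0, 2, 21 and 15. A count of 0 allows up to 3 reads, a level of 1.67 in the mutant input and 1.2 in the mock input.

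**Figure D1:**
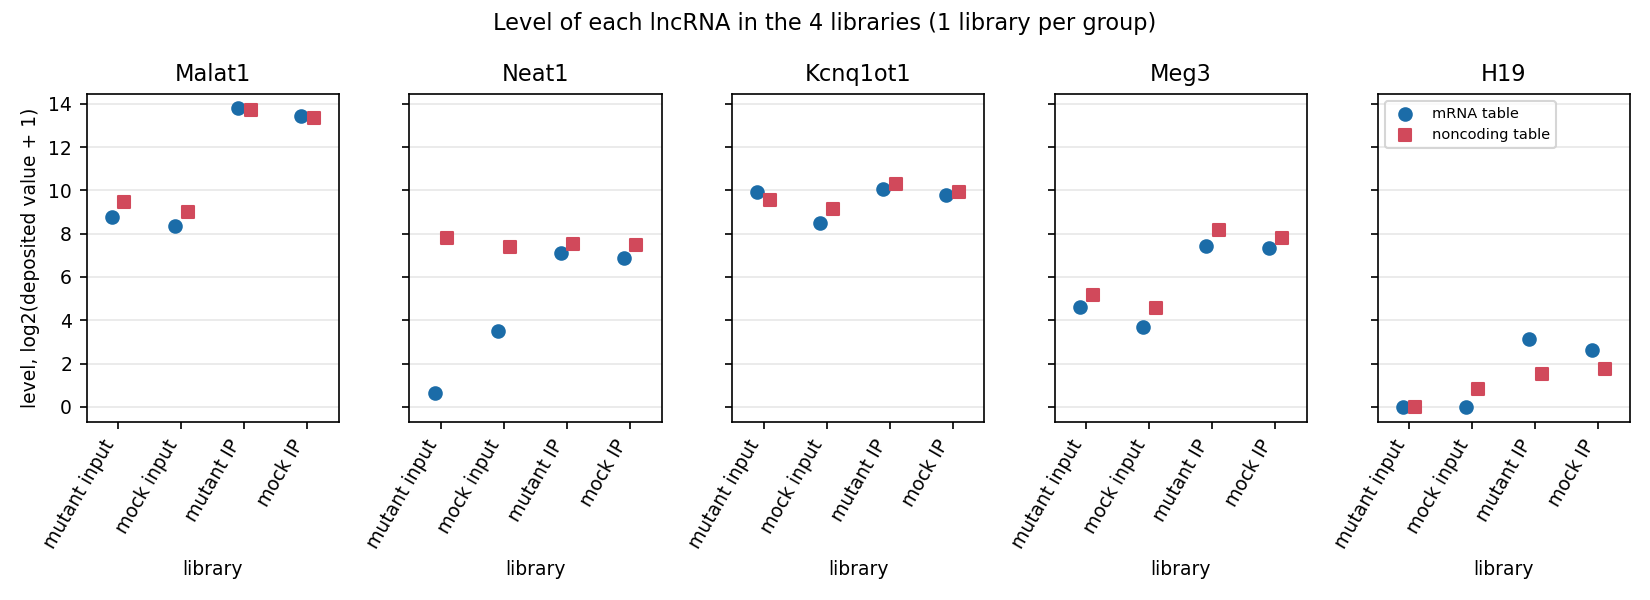
Level of each RNA in the 4 libraries as log2 of the deposited value plus 1, with 1 panel per gene, circles for the mRNA table and squares for the row with the highest mean in the noncoding table. Values are not divided by length and are to be read within a panel: Malat1 and Meg3 lie higher in both IPs than in both inputs in either table, and Neat1 does so in the mRNA table only.

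The mutant IP was set against the mock IP to see whether recovery of these RNAs depended on the tagged protein. None of the 10 levels (5 genes in 2 tables, with the row of the highest mean standing for a gene) was 4-fold higher or lower. Among all measured features, 10.1% in the mRNA table and 13.5% in the noncoding table were at least 4-fold higher and 5.74% and 5.99% lower. Most of the members were deeply read. Among features with at least 20 reads in every library (deep features) 0.698% and 10.6% were higher and 0.116% and 0% lower. With 3 and 4 member levels at that depth in the 2 tables, 0 calls is near the background in both. Of the 24 noncoding rows 0 were 4-fold apart, against 12.4% of all rows higher and 5.37% lower. These rows come from 5 genes, and rows of a gene are not independent. Log2 ratios here and in all such counts use a pseudocount of 1 on the deposited values.

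Malat1 was 1.29-fold higher in the mutant IP in the mRNA table (95% interval 1.27 to 1.31) and 1.28-fold in its leading noncoding row (1.26 to 1.3). Kcnq1ot1 gave 1.24 (1.17 to 1.31) and 1.3 (1.23 to 1.37). Meg3 gave 1.06 (0.927 to 1.22) and 1.28 (1.15 to 1.44). The deep features, 859 in the mRNA table and 864 in the noncoding table, had median log2 ratios of 0.36 and 0.43 between the IPs. The log2 ratios of 0.37 and 0.36 for Malat1 exceeded those of 51.9% and 44.3% of them, Kcnq1ot1 those of 45.9% in either table, and Meg3 those of 27.8% and 44.1%. Other library scalings moved the median of all features from 0.38 to between 0.02 and 0.21 in the mRNA table and from 0.47 to between -0.06 and 0.13 in the noncoding table. They took Malat1, Neat1, Kcnq1ot1 and Meg3 to between -0.53 and -0.02 on the log2 scale under at least 1 scaling in each table, so no direction is drawn from ratios of this size.

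Scaling drops out when 2 genes are compared in the same 2 libraries. Between the IPs, Kcnq1ot1 relative to Malat1 was at 0.959 (0.905 to 1.02) in the mRNA table and 1.01 (0.955 to 1.07) in the noncoding table. Meg3 relative to Malat1 gave 0.821 (0.716 to 0.941) and 1.0 (0.894 to 1.12). Neat1 relative to Malat1 gave 0.910 (0.777 to 1.07) for NR_003513 and 0.808 (0.709 to 0.921) for ENSMUST00000173672.1. The interval lay below 1 for Meg3 in the mRNA table and for this Neat1 row, and held 1 in the other comparisons.

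Among the rows of Malat1, ENSMUST00000174808.1 had the highest ratio between the IPs. Its 938 and 505 IP reads give a ratio of 1.72 (1.54 to 1.92), or 1.34 relative to the leading Malat1 row (1.2 to 1.5). It also had 24 reads in the mutant input and 0 in the mock input, at least 11.1-fold higher. ENSMUST00000173523.1, with 766 and 647 IP reads, was at 0.854 relative to the leading row (0.767 to 0.951), so the rows of Malat1 did not all move together. Among the rows of Neat1, ENSMUST00000174287.1 gave 1.69 (1.28 to 2.23) from 153 and 84 reads, which is 1.63 relative to ENSMUST00000173672.1 (1.2 to 2.21). H19 gave 1.5 (0.715 to 3.25) in the mRNA table and 0.772 to 2.78 over its 4 noncoding rows, each with an interval that holds 1, so a difference between the IPs was not detectable at this depth.

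IP was set against input in each condition to see how far the beads retained each RNA. The labels describe RiboMinus selection for the inputs only, so these ratios also set differently prepared RNA side by side, and the part of that step was not tested. In the mutant, 4 of 5 members in the mRNA table and 2 of 5 in the noncoding table were at least 4-fold higher in the IP than in the input, against 61.1% and 25.7% of all features, and 0 were lower, against 2.32% and 10.3%. In the mock the counts were the same, 4 of 5 and 2 of 5 higher, against 60.6% and 23.5%, and 0 lower, against 1.92% and 10.7%. Of the members that were deep features, 2 of 3 in the mRNA table and 2 of 4 in the noncoding table were higher in each condition and 0 lower. Among all deep features of the mutant, 41.1% and 9.26% were higher and 1.98% and 12.4% lower. For the mock these shares were 43.5% and 4.28% higher and 1.98% and 13.3% lower. On the deposited scale, being 4-fold above input was thus more usual in the mRNA table than in the noncoding table. Under 3 other scalings the number of all features higher in the mRNA table fell. It went from 8330 to between 4028 and 4464 in the mutant, and from 7940 to between 3678 and 4397 in the mock. In the noncoding table the number rose, from 877 to between 941 and 1214 and from 736 to between 986 and 1278. How far the tables differed thus depended on the scaling.

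Malat1 stood near the top of the deep features in both tables. Its IP level in the mRNA table was 32.0 times the input level for the mutant (29.8 to 34.4) and 33.7 times for the mock (31.4 to 36.2), and among the 859 deep features 0 were higher in the mutant and 1 in the mock. In the noncoding table its leading row was at 18.9 times (17.9 to 20) and 20.3 times (19.2 to 21.5), with 7 and 3 of 864 deep features higher. The size of these ratios depended on the scaling: under 3 other scalings the log2 ratios went from 5.0 to between 2.69 and 3.38 (mutant) and from 5.07 to between 2.40 and 3.30 (mock) in the mRNA table, and from 4.24 to between 4.57 and 5.08 and from 4.34 to between 4.68 and 5.30 in the noncoding table. Malat1 took up 0.258% and 0.278% of the input reads of the mRNA table and 1.67% and 1.47% of the IP reads. Deep features need at least 20 reads in each input, which leaves out Neat1 NR_003513, with log2 6.45 on 1 mutant input read. In the mRNA table the deep features had median log2 ratios of 1.62 (mutant) and 1.75 (mock), against 2.44 and 2.32 for all measured features. In the noncoding table the medians were -0.45 and -0.36, against 0.90 and 0.79. Positions among all measured features were not worked out.

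Meg3 was next among the members that were deep features, at 7.18 times input in the mutant (5.25 to 10.1) and 13.5 in the mock (9.29 to 20.2) in the mRNA table. Its leading noncoding row was at 8.08 (6.25 to 10.6) and 9.67 (7.35 to 12.9). The position of Meg3 depended on the table: its log2 ratio exceeded those of 78.7% (mutant) and 95% (mock) of deep features in the mRNA table, and 93.3% and 99.0% in the noncoding table. Under 3 other scalings the log2 ratios of Meg3 in the mRNA table went from 2.79 to between 0.53 and 1.21 in the mutant and from 3.64 to between 1.06 and 1.94 in the mock, below 4-fold. Positions among features do not move with the scaling, apart from the pseudocount.

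Kcnq1ot1 was much nearer to its input level on the deposited scale. It was at 1.10 times input in the mutant (1.03 to 1.17) and 2.44 in the mock (2.26 to 2.64) in the mRNA table, and at 1.66 (1.56 to 1.77) and 1.70 (1.59 to 1.81) in the noncoding table. Relative to Malat1, which takes the scaling out, Kcnq1ot1 was at 0.0343 (0.0313 to 0.0377) in the mutant and 0.0724 (0.0651 to 0.0805) in the mock in the mRNA table. The noncoding table gave 0.0877 (0.0805 to 0.0955) and 0.0836 (0.0767 to 0.0913). Retention of Malat1 thus exceeded that of Kcnq1ot1 by more than the counting intervals in both conditions and both tables. The direction of Kcnq1ot1 itself in the mRNA table was not stable, at log2 values of 0.13 (mutant) and 1.28 (mock) that went below 0 under each of 3 other scalings. In the noncoding table its values of 0.73 and 0.76 rose to between 1.06 and 1.56 (mutant) and between 1.10 and 1.72 (mock). The position of Kcnq1ot1 also depended on the table. Its log2 ratio exceeded those of 24.1% (mutant) and 42.3% (mock) of deep features in the mRNA table. In the noncoding table it exceeded those of 80.1% and 84.5%, where the median log2 ratios of deep features were -0.45 and -0.36. Among all measured features of that table the medians were 0.90 and 0.79, above the Kcnq1ot1 values of 0.73 and 0.76.

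The rows of Neat1 split into those far above input and 1 at input level. ENSMUST00000173672.1 was at 0.846 times input in the mutant (0.740 to 0.967) and 1.09 in the mock (0.949 to 1.25), and the mutant value went above 1 under 3 other scalings. NR_003513 was at 11.1 times input in the mock (7.41 to 17.2) and, on 1 input read, at 244 in the mutant with an interval from 43.5 to 9663. Its mock log2 ratio of 3.35 went to between 0.78 and 1.65, below 4-fold, under 3 other scalings. ENSMUST00000174287.1 and ENSMUST00000174829.1 were at 7 (3.8 to 14.1) and 10.8 (3.91 to 41.2) in the mock, and with 0 mutant input reads at least 34- and 12.2-fold higher in the mutant.

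Set against ENSMUST00000173672.1 in the mock, those last 2 rows were retained 6.44 times (3.43 to 13.1) and 9.88 times (3.54 to 38.2) as much. In shares, ENSMUST00000173672.1 held 100% of the 395 noncoding Neat1 reads of the mutant input (exact 95% interval 99.1 to 100) and 96.3% of 427 in the mock input (94.0 to 97.8). It held 70.7% of 709 reads in the mutant IP (67.2 to 74.0) and 77.9% of 574 in the mock IP (74.3 to 81.2). Which row is the short and which the long form was not worked out here. Reads that overlapping transcripts share may be counted in more than 1 row, so the rows are not independent.

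The other rows of Malat1 and Meg3 all had higher levels in the IPs. Malat1 rows ranged from 9.64 to 110 times input in the mutant, and from 14.1 to 508 in the mock for the 3 rows with reads in that input. The row at 508 rests on 1 mock input read, with an interval from 90.8 to 20104. It was also the row at 110, on 4 mutant input reads (42.6 to 404). The leading Malat1 row held 93.8% of the gene's noncoding reads in the mutant input and 96.5% in the mock input, and 93.2% and 93.3% in the IPs. Meg3 rows ranged from 2.89 to 12.9 in the mutant over 9 rows, 8 of them with intervals above 1. In the mock they ranged from 6 to 42.5 over 10 rows, all 10 above 1. The Meg3 row at 42.5 rests on 2 mock input reads (11.4 to 357) and the one at 2.89 on 3 mutant input reads (0.794 to 15.8). Counted over rows of the noncoding table, 15 of 24 measured rows were at least 4-fold higher than input in the mutant against 26.2% of all rows, and 18 of 23 in the mock against 23.9%. Most of these rows belong to Malat1 and Meg3, and rows of a gene are not independent. By gene, 2 of 5 were higher in each condition, against 25.7% and 23.5% of all features. On the lower side 0 rows were 4-fold apart in either condition, against 9.18% and 9.67%.

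**Figure D2:**
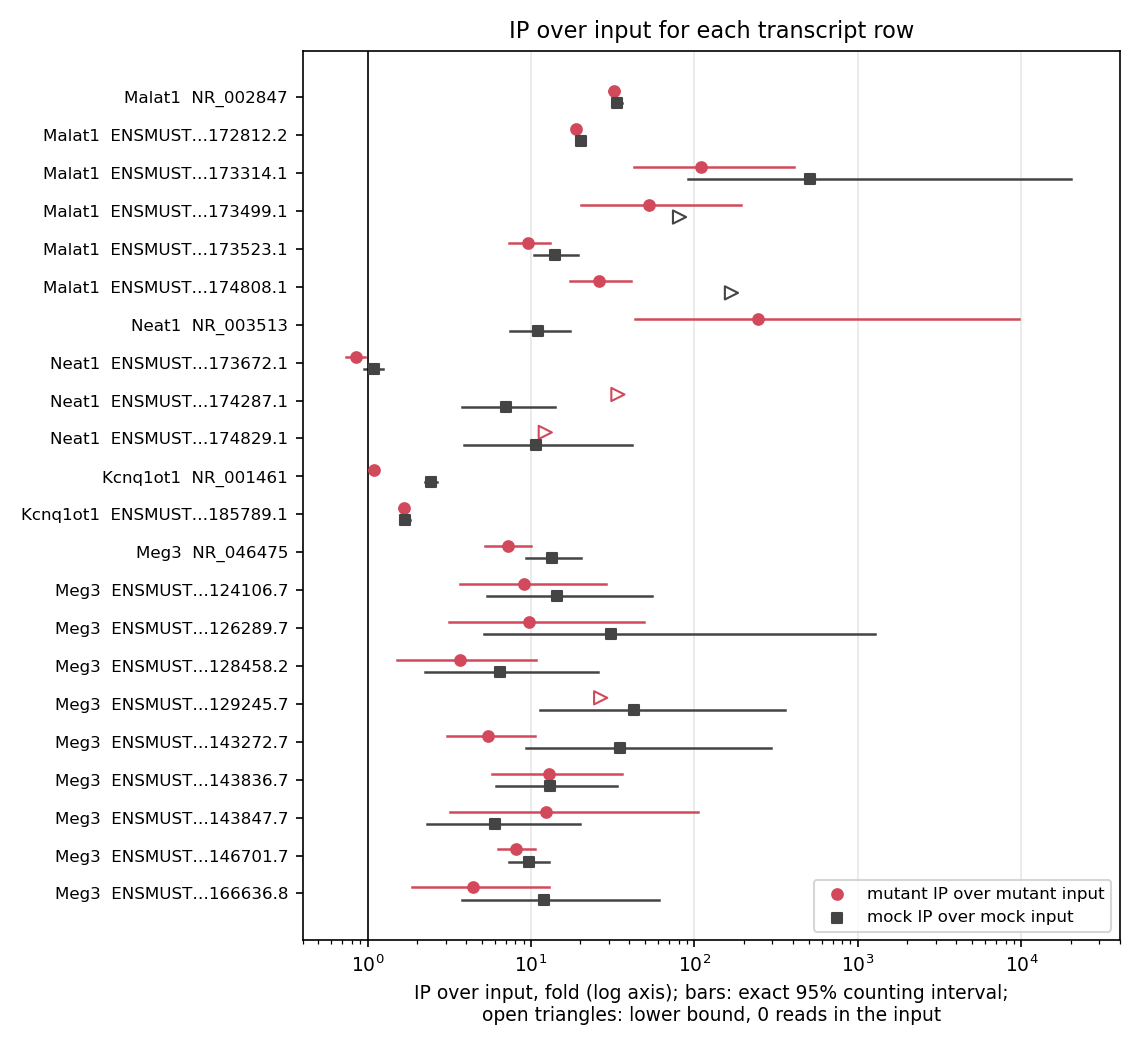
IP over input for each transcript row with at least 20 reads in both IPs, on a log axis, with circles for the mutant and squares for the mock, bars for exact 95% counting intervals, and open triangles for lower bounds where the input had 0 reads. The Malat1 and Meg3 rows shown lie to the right of 1 in both conditions. Kcnq1ot1 lies between 1.10 and 2.44, and ENSMUST00000173672.1 of Neat1 lies at 0.846 and 1.09. Rows were picked by IP reads with no minimum for the input, so rows with few IP reads are left out.

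H19 had 21 and 13 IP reads and 0 input reads in the mRNA table. That makes it at least 4.67-fold higher than input in the mutant and at least 4.33-fold in the mock, against a floor of 3 reads per library, and with a pseudocount of 5 its log2 ratios were 1.35 and 1.03, below 4-fold. No noncoding row of H19 had more than 6 reads in any library.

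Read side by side for the 2 conditions, the log2 ratio of Malat1 in the mRNA table was 5.0 with the tagged protein and 5.07 without. Its leading noncoding row lay at 4.24 and 4.34. On the deposited scale the mutant was slightly below the mock in both tables, but the intervals of their ratio, given below, hold 1. An IP over input at least 4-fold higher in the mutant than in the mock was found for 4 of 859 deep features (0.466%) in the mRNA table and 92 of 864 (10.6%) in the noncoding table, and 1.75% and 0.579% were lower. The members among the deep features, Malat1, Kcnq1ot1 and Meg3 in both tables and Neat1 in the noncoding table, were in neither group.

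**Figure D3:**
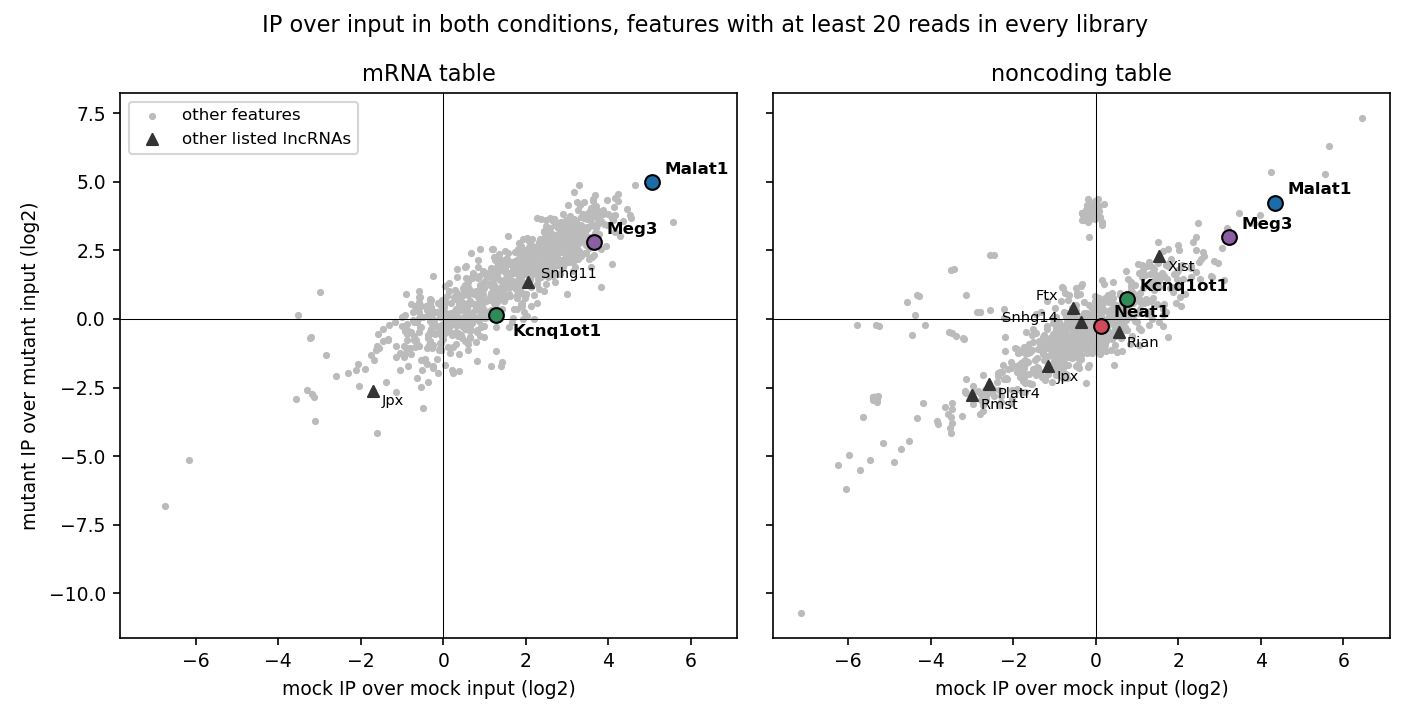
IP over input in the mock (x axis) and in the mutant (y axis), both log2 with a pseudocount of 1, for features with at least 20 reads in every library, 859 in the mRNA table and 864 in the noncoding table. Malat1 is at 5.07 (mock) and 5.0 (mutant) in the mRNA table, Neat1 at 0.12 and -0.24 in the noncoding table, and triangles mark other listed lncRNAs.

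The specific enrichment, the ratio just counted, divides IP over input in the mutant by IP over input in the mock, and uses the same 4 libraries as the ratios above. Of the 10 member levels 1 was at least 4-fold higher, against 13.8% and 13.3% of all features in the mRNA and noncoding tables, and 0 were lower, against 10.6% and 8.69%. Over the 24 noncoding rows 1 was higher and 1 lower, against 12.6% and 7.91% of all rows: ENSMUST00000174287.1 of Neat1 at 3.27 and ENSMUST00000174808.1 of Malat1 at -3.06 on the log2 scale, each with 1 input at 0 reads. The 1 level was Neat1 NR_003513, at 3.10 on the log2 scale, which rests on its 1 read in the mutant input and fell to 1.70 with a pseudocount of 5. For Malat1 the enrichment was 0.949 (large-sample 95% interval 0.860 to 1.05) in the mRNA table and 0.933 (0.862 to 1.01) in the noncoding table. Its log2 value in the mRNA table went from -0.07 to 0.08, 0.12 and 0.30 under 3 other scalings, so no direction is drawn from it.

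The other members with at least 10 reads in every library were at or below 1. Kcnq1ot1 gave 0.450 (0.408 to 0.496) in the mRNA table but 0.978 (0.893 to 1.07) in the noncoding table. Meg3 gave 0.533 (0.328 to 0.866) and 0.836 (0.575 to 1.22), and Neat1 ENSMUST00000173672.1 gave 0.777 (0.644 to 0.938). No interval among these lay above 1.

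The inputs were compared to ask whether the level of these RNAs differed between cells with and without mutant Dis3l2. In such bulk RNA, fewer cells that make an RNA and less of it per cell cannot be told apart. Of 8 measured levels 0 were at least 4-fold higher in the mutant input, against 10% of features in the mRNA table and 4.46% in the noncoding table, and 1 was lower, against 4.74% and 1.78%. Among deep features 0.698% and 0.231% were higher and 0% and 0.694% lower, and 0 of the 7 member levels at that depth were either. The median log2 ratio of deep features was 0.43 in the mRNA table and 0.44 in the noncoding table, and Malat1, at 0.44 and 0.46, lay close to it. Other scalings moved the median of all features from 0.51 to between -0.03 and 0.06 and from 0.48 to between 0.00 and 0.04, and under at least 1 of them Malat1 was below 0 in each table.

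The 1 lower level was again Neat1 NR_003513, with 1 read in the mutant input and 26 in the mock input, a ratio of 0.0534 (0.0013 to 0.325). Of the other Neat1 rows, 2 also had fewer reads in the mutant input, with 0 reads against 12 for ENSMUST00000174287.1, at least 2.88-fold lower, and 0 against 4 for ENSMUST00000174829.1. ENSMUST00000173672.1, with 395 and 411 reads, gave 1.33 (1.16 to 1.54). The rows that were low in the mutant input were those with 26 or fewer reads in the mock input, and the 2 tables may count the same reads. With a pseudocount of 5 the log2 ratio of NR_003513 went from -2.87 to -1.47, no longer 4-fold.

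Kcnq1ot1 differed between the tables, both made from the same 4 libraries. In the mRNA table it was 2.75-fold higher in the mutant input (2.54 to 2.99), with a log2 ratio above that of 95.3% of deep features, and 2.02 times Malat1 (1.78 to 2.30). In the noncoding table it was 1.33-fold higher (1.23 to 1.43), above 46.5% of deep features, and 0.963 relative to Malat1 (0.864 to 1.07). The noncoding table held 0.765 times the Kcnq1ot1 reads of the mRNA table in the mutant input and 1.59 times in the mock input, but 1.16 and 1.11 times in the IPs.

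For Malat1 the tables differed by the same amount within each kind of library. Its leading noncoding row held 1.62 and 1.60 times the reads of its mRNA table row in the mutant and mock inputs, and 0.958 and 0.965 times in the IPs. For Meg3 the numbers were 1.47 and 1.9 in the inputs and 1.65 and 1.36 in the IPs. The disagreement over Kcnq1ot1 was thus in its input reads, and the cause was not tested.

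**Figure D4:**
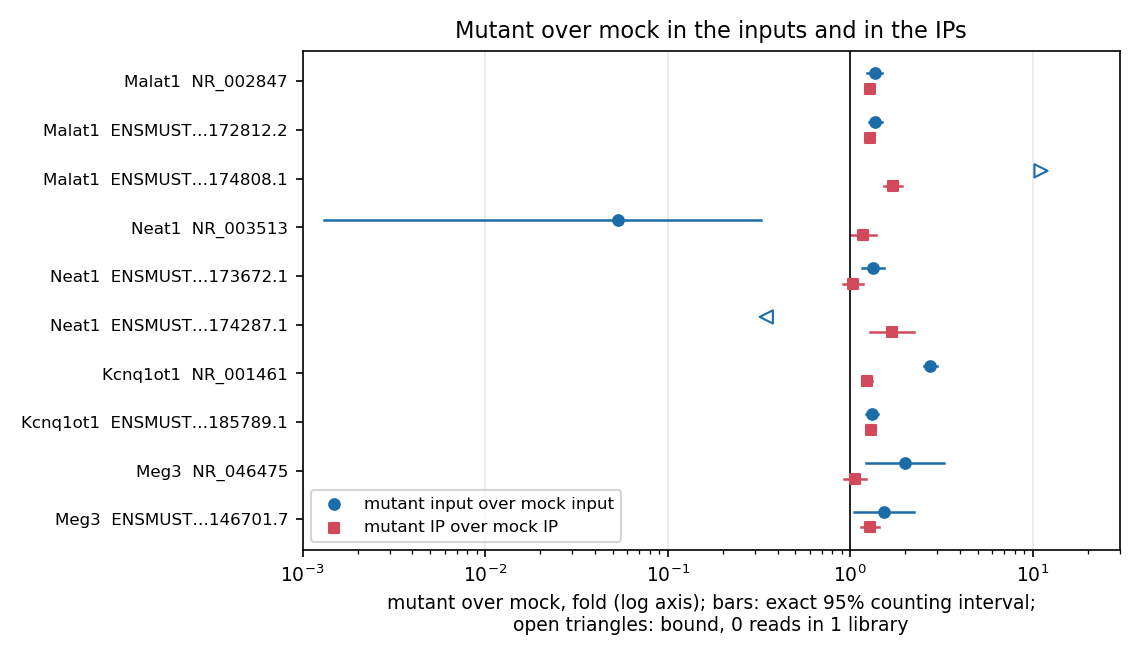
Mutant over mock in the inputs (circles) and in the IPs (squares) for the leading rows of Malat1, Neat1, Kcnq1ot1 and Meg3 in each table and for 2 further rows, on a log axis with exact 95% counting intervals and open triangles for bounds where 1 library had 0 reads. Between the IPs all 10 rows lie from 1.04 to 1.72, while between the inputs Neat1 NR_003513 lies at 0.0534 and Kcnq1ot1 NR_001461 at 2.75.

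Meg3 gave 1.99 (1.22 to 3.29) in the mRNA table and 1.54 (1.06 to 2.24) in its leading noncoding row, or 1.46 (0.886 to 2.44) and 1.12 (0.760 to 1.64) relative to Malat1. A difference of these Meg3 rows from Malat1 was not detectable at this depth. The shallower Meg3 row ENSMUST00000143272.7, with 13 reads in the mutant input and 2 in the mock input, gave 9.03 (2.04 to 82.4), or 6.56 relative to Malat1 (1.48 to 60). Over rows of the noncoding table, 2 of 18 measured were at least 4-fold higher, against 4.53%, and 1 lower, against 1.65%.

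Genes that overlap or lie near the members were read in the same libraries, by their order in a RefSeq gene table of another build. Neat1 follows Malat1 there with 0 genes between them. Kcnq1, the potassium channel gene that Kcnq1ot1 lies in, had 0 reads in both inputs and 20 and 19 IP reads, against 2903 and 2169 for Kcnq1ot1. The sources used here do not say whether the counting used strand, so reads of overlapping genes on opposite strands cannot be told apart. Rtl1, a protein-coding gene that overlaps Meg3 there, had 8 and 17 input reads and 67 and 81 IP reads. Rian, the lncRNA gene that lies past Meg3, had 12 and 11 input reads and 209 and 172 IP reads in the mRNA table. Its leading noncoding row was at 0.708 times input in the mutant (0.568 to 0.884) and 1.47 in the mock (1.16 to 1.88), so the tables differed for Rian. Igf2, the growth factor gene near H19, had 5 and 11 input reads and 31 and 9 IP reads.

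Other lncRNAs gave a wide range of retention. Of 53 listed names, 39 were in the noncoding table. Between the IPs 0 of 35 measured lay 4-fold up and 4 lay 4-fold down, against 13.5% and 5.99% of all features. Their median log2 ratio was 0.30 against 0.47 for all features. Over input in the mutant 9 of 32 were higher and 7 lower, against 25.7% and 10.3% of all features, with a median of 0.97 against 0.90. In the mock 14 of 31 were higher and 7 lower, against 23.5% and 10.7%, with a median of 1.54 against 0.79. In the mutant Xist, the RNA of the inactive X chromosome, was at 5.09 times input (3.47 to 7.72). In the mock Xist was at 3 (2.14 to 4.27). At the other end in the mutant, Snhg3, a snoRNA host transcript, was at 0.00746 (0.00461 to 0.0114), Rmst at 0.143 (0.107 to 0.188) and Platr4 at 0.191 (0.159 to 0.229). In the mock Rmst was at 0.119 and Platr4 at 0.164, and Snhg3 had 1284 input reads and 16 IP reads.

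Between the IPs the lowest of these with at least 20 reads was Mir17hg, the host of the miR-17 cluster, at 0.2 (0.119 to 0.324) from 21 and 97 reads, followed by Tug1 at 0.774 and Jpx, an activator of Xist, at 0.840. The highest were Ftx at 1.65, Xist at 1.5 and Platr4 at 1.5. In the mRNA table, 24 of the 53 names were found. Of 22 measured there, 3 were higher and 1 lower between the IPs, against 10.1% and 5.74% of all features. Xist was highest there at 2.03 and Jpx lowest at 0.630 among the 8 with at least 20 IP reads each. Over input in the mutant 11 of 20 were higher and 4 lower there, against 61.1% and 2.32% of all features, and in the mock 11 of 19 and 3, against 60.6% and 1.92%. Of the 2 with at least 20 reads in both mutant libraries, Snhg11 was at 2.57 times input in the mutant and Jpx at 0.156. In the mock Snhg11 was at 4.36 and Jpx at 0.301.

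Genes for proteins of paraspeckles and nuclear speckles, where Neat1 and Malat1 reside, were all 31 in the mRNA table. Between the IPs 0 were 4-fold apart, against 10.1% of all features higher and 5.74% lower. Their median log2 ratio was 0.42 against 0.38 for all features. The highest were the paraspeckle protein gene Rbm14 at 2.73-fold (2.16 to 3.48), Cpsf6 at 2.64 (1.97 to 3.59) and Rbm4b at 2.09 (1.65 to 2.64), and the lowest were Hnrnpm at 0.482 (0.385 to 0.602), Hnrnpr at 0.704 and Hnrnpul1 at 0.807. Over input 28 of 31 were higher in the mutant and 28 in the mock, against 61.1% and 60.6% of all features. Their medians were 3.43 and 3.52 against 2.44 and 2.32. Of the 31, 29 had at least 20 reads in both IPs, and no share of features matched in depth was worked out. Other scalings were not run on the list. Of the 9 with at least 20 reads in both mutant libraries, Hnrnpa1 was highest in the mutant at 17.0 (11.3 to 26.7). Srrm2, a scaffold protein of speckles, was at 10.9 (9.37 to 12.7), and U2af2 was lowest at 3.17 (1.97 to 5.35). In the mock Hnrnpa1 had 36 input reads and 479 IP reads, Srrm2 122 and 1947, and U2af2 21 and 113.

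Protein-coding and other genes of imprinted regions were measured in the mRNA table, which held 45 of 52 names. Between the IPs 2 of 44 were higher and 3 lower, against 10.1% and 5.74% of all features, with a median of 0.38 against 0.38. Grb10, a growth inhibitor, gave 3.43 (2.07 to 5.93), Snrpn 3.02 (1.94 to 4.83) and Snurf, which shares a transcript and so may share reads with Snrpn, 2.87 (1.90 to 4.45). The lowest were Mest at 0.694 (0.511 to 0.940), Rtl1 at 0.766 and Gab1 at 0.820. Over input in the mutant 26 of 40 were higher and 0 lower, against 61.1% and 2.32%, with a median of 2.53 against 2.44. In the mock 23 of 43 were higher and 0 lower, against 60.6% and 1.92%, with a median of 2.20 against 2.32. Of the 4 with at least 20 reads in both mutant libraries, Peg10 was at 9.91 times input in the mutant, Igf2r at 8.71, Gab1 at 6.00 and Zrsr1 at 3.69. In the mock Peg10 had 46 input reads and 396 IP reads, Igf2r 53 and 472, Gab1 8 and 376, and Zrsr1 52 and 66. Of microRNA genes of the Meg3 region, Mir433 had 7 mock IP reads in the mRNA table, where its other 3 libraries were at 0, and Mir673 had 0 in all 4 libraries.

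Features whose 4 levels had the pattern most like each member were found by the distance between log2 levels after each feature's mean was subtracted, over 4 libraries and deep features only. For Malat1 they were Usp48, P4hb and Nufip2 in the mRNA table (distances of 0.31, 0.67 and 0.80) and Gm26825, RP23-32A8.10 and the mitochondrial 16S ribosomal RNA mt-Rnr2 in the noncoding table (0.46, 0.65 and 0.75). For Kcnq1ot1 they were Synj2bp, Acad9 and Ifnar1 (0.11, 0.32 and 0.33), and 4933431K23Rik, RP23-367H8.4 and E330020D12Rik (0.09, 0.12 and 0.14). For Meg3 they were Supt6, Smarcc1 and Sf3b3 (0.12, 0.15 and 0.22), and Gm17167, 4930509G22Rik and Gm43150 (0.20, 0.31 and 0.43). For Neat1, measured deeply enough in the noncoding table only, they were 9330158H04Rik, Gm26562 and Gm42851 (0.07, 0.09 and 0.11). In each table the distances of the 3 features nearest to Malat1 were wider, rank by rank, than those of the other members measured.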

How the data were processed

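RNA was sequenced from the inputs and IPs of mutant and mock cells, 1 library each. The submitters' processing notes name Bowtie and the build mm9. Sources used here name no read counter and do not say how strand or multiple alignments were handled. The authors deposited a signal per transcript and library in 2 tables. In both, 100% of values were whole reads, within 0.02 reads, divided by 1.8 (mutant input), 2.7 (mutant IP) or 2.5 (mock libraries), factors whose meaning the files do not state.

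Ratios were taken on the deposited values. Folds of 2 libraries have exact conditional binomial 95% intervals, shares exact Clopper-Pearson intervals, comparisons of 2 genes exact conditional odds ratios, and the specific enrichment a large-sample interval. PCR copies are not independent molecules, so intervals cover counting error only. Counts past 4-fold used log2 ratios with a pseudocount of 1 among features of at least 1 in a library of the ratio, with the row of the highest mean for a gene. Where a library had 0 reads, folds are bounds against 3 reads per library. With 1 library per group no test was run on the recovered reads, since no residual degrees of freedom remain, and no p-value is given. Folds between the IPs and their exact intervals were tested on simulated counts that held counting error only, for features with many reads. The other kinds of interval and rows with few reads were not part of that test.

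Besides the members, genes were named by a rule: in each list, the 3 highest and 3 lowest among those with at least 20 reads in both libraries, those past 4-fold, and the 3 features most like each member. Nearby genes were added later, by position. Members and lists were chosen with earlier results of these data known. A RefSeq gene table of GRCm38, used for gene order only, held the symbols of 15333 mRNA and 3317 noncoding rows. Alternatives were the pseudocount, the scaling, the filter and summed rows. Python 3.11.15, numpy 2.4.6, pandas 2.3.3, scipy 1.17.1 and matplotlib 3.10.9 were used.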

Additional observations from a re-analysis of the deposited data

Results flagged for a closer look

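ENSMUST00000173672.1, the Neat1 row with the most input reads, was below its input in the mutant and above it in the mock, at 0.846 and 1.09 times input. The difference between the conditions was not tested, since each has 1 IP and 1 input library, and the interval of the mock value holds 1. Its mutant log2 ratio of -0.24 went to between 0.08 and 0.59 under 3 other library scalings.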

How the results depend on the processing

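No paired analysis was possible because each group has 1 library, which also leaves no replicate to leave out. Counts of members at least 4-fold apart kept within 1.5 times under the alternatives run except at 3 points: with a pseudocount of 5 both the 1 level lower between the inputs and the 1 level higher in the specific enrichment became 0, and with equal totals 1 level, Kcnq1ot1 in the mRNA table, was lower in the mutant IP than in its input, at -2.17 against 0.13. Signs of member values changed for 16 of 48 when libraries were centred on the median, 12 with equal totals, 16 with equal totals without the highest feature, and 2 with summed rows, and for 0 under the other 4 alternatives. The changed values include the mRNA table ratios of Kcnq1ot1 over input, which were -1.48 (mutant) and -0.48 (mock) after centring. Summed over rows, Neat1 over input in the mutant went from -0.24 to 0.26 and H19 between the IPs from -0.25 to 0.33. None of the values past 4-fold changed sign under any alternative run. Over all features, counts past 4-fold moved widely: between the IPs from 90 to 2112 higher (1436 as reported) and 10 to 1378 lower (819) in the mRNA table, and 110 to 725 higher (475) and 0 to 432 lower (210) in the noncoding table. Between the inputs they ran from 7 to 2336 higher (939) and 1 to 1904 lower (444), and from 4 to 346 (113) and 1 to 179 (45). For mutant IP over input they ran from 3853 to 9407 higher (8330) and 86 to 1429 lower (316), and from 211 to 1227 (877) and 220 to 496 (351). For the mock they ran from 3105 to 9301 (7940) and 79 to 1513 (252), and from 101 to 1278 (736) and 232 to 460 (336). For the specific enrichment they ran from 206 to 3095 (2079) and 84 to 2686 (1592), and from 137 to 809 (526) and 13 to 667 (345). The cause was not tested. Low input reads limit H19, 3 of the 4 Neat1 rows and most Meg3 rows.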
